A study of Mus musculus with 24 samples.

Results

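The comparison set KLRG1+ regulatory T cells (kTreg) against resting regulatory T cells (rTreg) of young mice, in 8 of the 24 libraries of the series, 4 of each subset. Every library came from the spleen of a wild-type C57BL/6JRccHsd mouse aged 2 months, and both subsets were sorted by flow cytometry from the same 4 mice, so each kTreg library had an rTreg partner with the same mouse number. The kTreg gate took Tregs with KLRG1 on their surface, and the rTreg gate took Tregs that were CD62L+ CD44-. Nothing was deleted or treated in any of these mice, and the sex of each mouse is not given in the sources used here. Of the 17464 genes in the table, 14275 reached a value of 10 in 4 or more of the 8 libraries and were tested, and 3189 were not. Values are normalized reads, that is, read counts divided by a size factor for each library. Activated Tregs (aTreg, CD62L- CD44+) of the same mice, and kTreg and rTreg cells of 4 mice aged 26 months, are used only for reference.

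Regulatory T cells are CD4 T cells that hold back immune responses under the control of the transcription factor Foxp3. Resting cells carry CCR7 and other receptors that let lymphocytes enter lymph nodes, and depend on quiescence factors such as TCF1. After activation, part of the population loses these receptors and takes on an effector programme with Blimp-1, ICOS, CTLA-4 and, in cells that settle in tissues, the IL-33 receptor ST2. KLRG1 is a lectin-like inhibitory receptor that binds cadherins and marks terminally differentiated T cells and NK cells.

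Of the 14275 genes, 817 (5.72%) rose and 440 (3.08%) fell in kTreg against rTreg cells, 1257 (8.81%) in all, at an adjusted p below 0.05 in limma, paired by mouse and corrected by Benjamini and Hochberg over all genes tested, and a change of more than 1.5-fold. In every mouse each of these genes moved the same way. Where members of a gene list are counted at an unadjusted p below 0.05, they also changed by more than 1.5-fold. With the mouse number left out of the fit, 1078 rose and 711 fell. The values of the 2 groups did not overlap for 3491 genes (24.5% of those tested), among them 791 of the genes that rose and 424 of those that fell. A rise of at least 4-fold was fitted for 326 genes, and a fall of that size for 105. The median log2 fold change of the genes that rose was 1.59, and among those that fell the median size was 1.12. The filter let in 69 genes through the 4 kTreg libraries alone, of which 39 rose, and 77 through the 4 rTreg libraries alone, of which 28 fell, and the direction of these genes was fixed by the filter. Fold changes are on the log2(value + 1) scale, which understates the change of genes with few reads. In sorted bulk populations, fewer cells that carry a transcript and less of it per cell cannot be told apart.

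**Figure D1:**
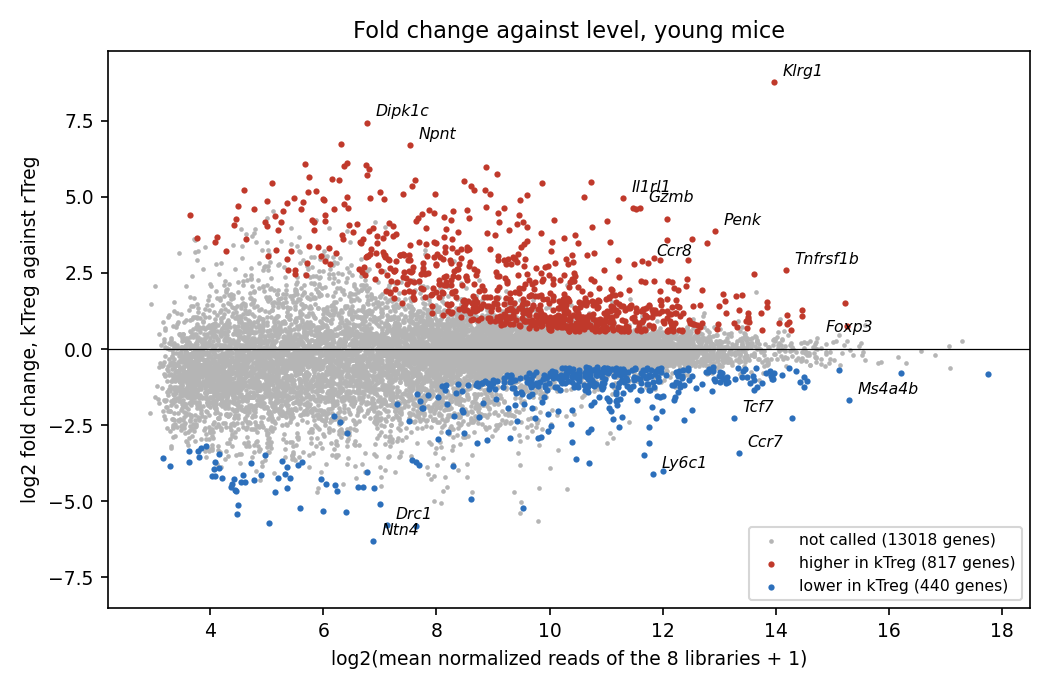
Log2 fold change of kTreg against rTreg cells of young mice (vertical axis) against log2 of the mean normalized reads of the 8 libraries plus 1 (horizontal axis), 1 point a gene. Red points are the 817 genes that rose, blue points the 440 that fell and grey points the rest, and Klrg1 lies farthest from 0 at 8.77.

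Depth did not separate the subsets: the 8 libraries held between 15502851 and 21653939 reads on listed genes. Young kTreg 4 stood apart from the other 7 libraries, with 4913 listed genes without a read against 554 to 1192. A total of 2174 tested genes had no read in it but reads in all of the other 7, where the median of their mean values was 42.8. It correlated with the other kTreg libraries at 0.784 to 0.816, while those correlated with each other at 0.945 to 0.969. Both libraries of mouse 2 carried transcripts of other cells: summed over a list of 15 macrophage and monocyte markers, normalized reads came to 54740 in kTreg 2 and 10525 in rTreg 2, against 412 to 1840 in the other 6 libraries. For B cell markers the sums were 11243 and 22993, against 1198 to 2125. Without mouse 4, 2176 genes rose (15.2%) and 1701 fell (11.9%), 3877 in all (27.2%), and 806 of the 817 and 429 of the 440 genes were among them. Without mouse 2, 197 rose and 44 fell, without mouse 1, 69 and 24, and without mouse 3, 76 and 26, so the count of genes past the threshold hung on which 3 mice remained. Of the 38 gene lists with a call, 36, 35 and 37 had fewer calls without mouse 1, 2 and 3 and 0 had fewer without mouse 4.

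**Figure D2:**
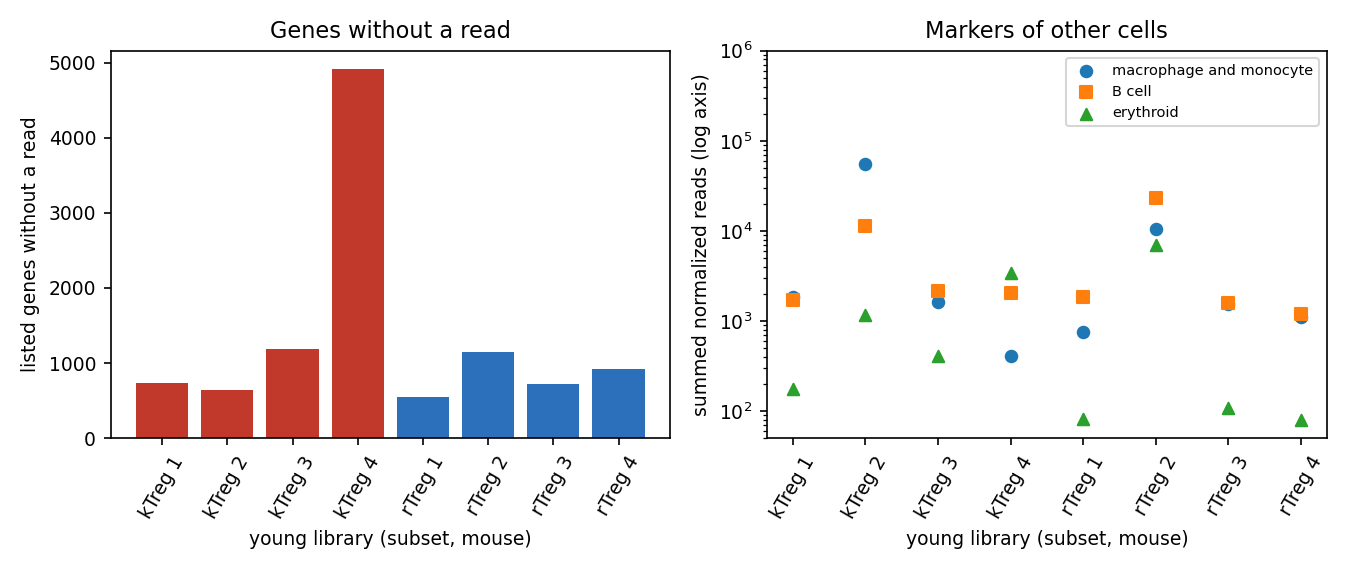
Left, listed genes without a read in each of the 8 young libraries, with kTreg bars in red and rTreg bars in blue; right, normalized reads summed over marker lists of macrophages and monocytes (circles), B cells (squares) and erythroid cells (triangles), on a log axis. kTreg 4 has 4913 genes without a read, and the libraries of mouse 2 hold the highest sums for macrophage and B cell markers.

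The genes of the sorted proteins and the 3 markers Klrg1, Cd200r1 and Id2 were examined first. Klrg1 (chromosome 6, 122246981-122259914 in GRCm39) had 29643, 26704, 30737 and 41561 normalized reads in kTreg 1 to 4 and 99.7, 140, 50.1 and 37.1 in rTreg 1 to 4. All 4 kTreg libraries were thus far above all 4 rTreg libraries, with a log2 fold change of 8.77 (SE 0.42, adjusted p = 0.0029). As the gate chose these cells on KLRG1, that is a check of the sort and not a finding. Cd44, the hyaluronan receptor that was absent from the rTreg gate, rose by 1.61 on the log2 scale (SE 0.13, adjusted p = 0.0051). As that gate chose cells without CD44, this too is a check of the sort.

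Cd200r1, the receptor of the inhibitory ligand CD200, had 5337, 4215, 5692 and 7248 normalized reads in kTreg cells against 840, 629, 915 and 637 in rTreg cells (log2 fold change 2.89, SE 0.18, adjusted p = 0.0045). Id2, an inhibitor of E-protein transcription factors that accompanies effector differentiation, had 7019, 6194, 5968 and 6959 against 1010, 831, 970 and 575 (2.98, SE 0.18, adjusted p = 0.0045). Neither group overlapped the other for these genes. In young aTreg cells Id2 lay between the subsets, at 4320 ± 1026 (SD, n = 4), and the difference between kTreg and aTreg cells did not pass (log2 fold change 0.62, adjusted p = 0.13), whereas Cd200r1 differed between them by 2.11 (adjusted p = 0.0097).

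Foxp3 was expressed at 30375, 31601, 36395 and 24669 normalized reads in kTreg cells and 21854, 20577, 24096 and 29388 in rTreg cells. The groups overlapped, since mouse 4 went the other way from the other 3 mice, and the log2 fold change of 0.36 (SE 0.18) did not pass (adjusted p = 0.26). Cd4 did the same (0.36, SE 0.18, adjusted p = 0.28). Il2ra, which encodes the IL-2 receptor alpha chain CD25, was lower in each kTreg library, at 7676, 7688, 7121 and 5231 against 10400, 9199, 9462 and 11167. Its groups did not overlap, but the log2 fold change of -0.55 (SE 0.16) missed the threshold (adjusted p = 0.095). Without mouse 4, Foxp3 was at 0.56 with an adjusted p of 0.0027, below the 1.5-fold threshold. The T cell receptor subunit gene Cd3e overlapped between the groups, with a log2 fold change of 0.13 (SE 0.12, adjusted p = 0.51).

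**Figure D3:**
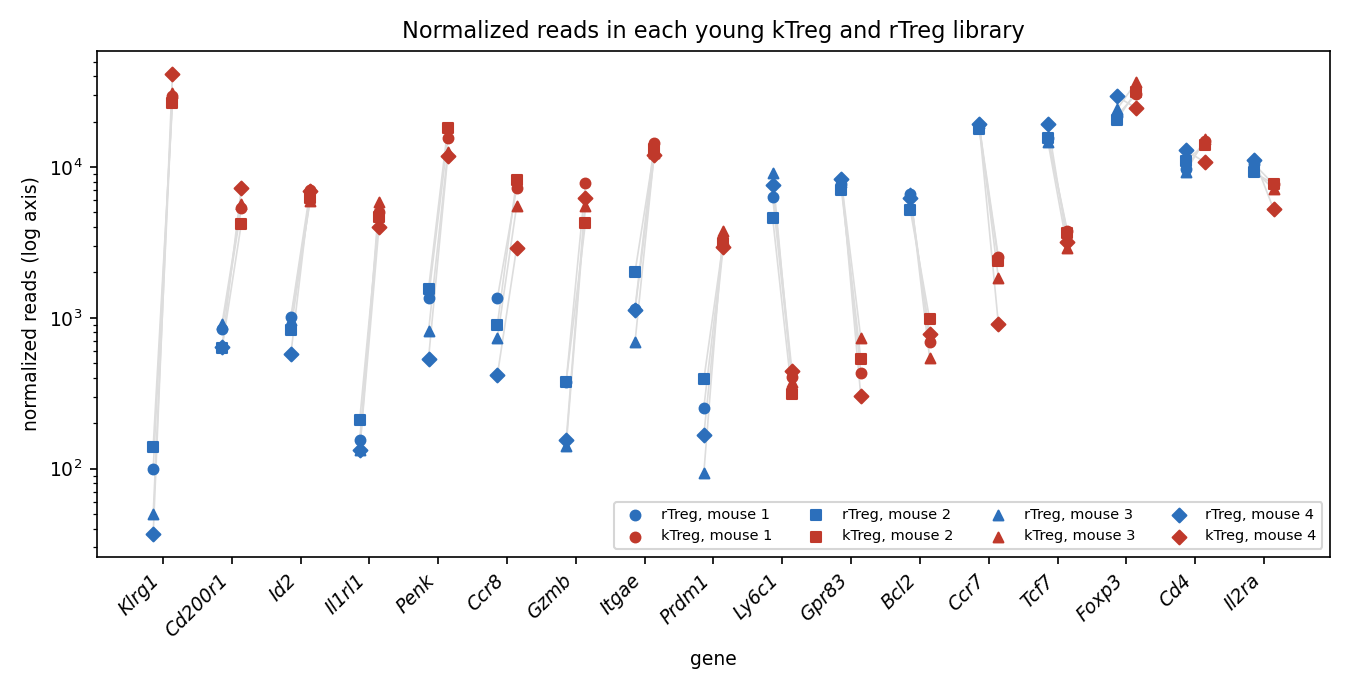
Normalized reads (log axis) of 17 genes in the 4 rTreg (blue) and 4 kTreg (red) libraries of young mice, with grey lines joining the subsets of a mouse and marker shapes giving the mouse. The genes from Klrg1 to Prdm1 are higher in all kTreg libraries, those from Ly6c1 to Tcf7 lower, and Foxp3 and Cd4 overlap.

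Apart from Klrg1, the genes with the smallest p that rose held a receptor, a peptide precursor and regulators of T cell activation. Il1rl1 (chromosome 1, 40468730-40504575), which encodes the IL-33 receptor ST2, had 5070, 4697, 5859 and 3991 normalized reads in kTreg cells and 154, 209, 132 and 133 in rTreg cells. It rose by 4.97 on the log2 scale (SE 0.20, adjusted p = 0.0029), and its level in young aTreg cells, 175 to 243, was far below that of kTreg cells (difference 4.58, adjusted p = 0.0058). Penk, which encodes the opioid peptide precursor proenkephalin, had 15481, 18192, 12543 and 11875 against 1361, 1548, 813 and 537 (3.87, SE 0.18, adjusted p = 0.0029). Its aTreg libraries, at 2582 to 6417, lay between the 2 groups.

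Neb, the gene of the muscle protein nebulin, rose by 3.75 (SE 0.18), from 168, 164, 214 and 205 normalized reads to 1845, 2314, 2637 and 3622. The oxysterol-binding protein gene Osbpl3 rose by 2.93 (SE 0.14), the nuclear receptor gene Rora by 2.79 (SE 0.17) and the inhibitory receptor gene Pdcd1, which encodes PD-1, by 2.20 (SE 0.11). The costimulatory receptor gene Tnfrsf9 rose by 1.75 (SE 0.10) and the adaptor gene Samsn1 by 1.42 (SE 0.09), all with adjusted p-values of at most 0.0045. Dusp1, a phosphatase of MAP kinases, showed what the pairing adds. Its kTreg libraries had 30238, 5946, 17663 and 12655 normalized reads and its rTreg libraries 9821, 1721, 5335 and 3325, so that the groups overlapped, but the difference within a mouse was 1.62, 1.79, 1.73 and 1.93 on the log2 scale (mean 1.77, SE 0.10, adjusted p = 0.0040).

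Of the genes with a mean of at least 100 normalized reads in the higher group, Dipk1c, Npnt, Ky, Rassf6, Frmd5, Krt18 and Cxcl2 followed Klrg1 in size of rise, with log2 fold changes of 7.44, 6.70, 6.06, 6.00, 5.97, 5.93 and 5.73. Dipk1c had 251, 216, 161 and 238 normalized reads in kTreg cells and was without a read in 3 of the 4 rTreg libraries, with 1.32 in the other. Npnt, which encodes the extracellular matrix protein nephronectin, had 333, 517, 191 and 417 against 9.25, 0, 1.32 and 4.01. Krt18, a keratin gene, and Cxcl2, a chemokine that draws neutrophils, were at 79.4 to 482 and 112 to 357 in kTreg cells against at most 5.14 and 19.5 in rTreg cells. These were genes of low to moderate level that were close to 0 in resting cells, so their fold changes depend on the added constant of 1. Dipk1c, Npnt, Ky and Krt18 passed the filter through the kTreg libraries alone, so their direction is no result.

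The genes with the smallest p that fell held a Ly6 antigen, G protein-coupled receptors and members of the tetraspan MS4A family, beside the survival gene Bcl2 and the transcription factor gene Tcf7. Ly6c1, a GPI-anchored antigen carried by resting T cells, had 408, 312, 378 and 445 normalized reads in kTreg cells and 6317, 4592, 9121 and 7558 in rTreg cells (log2 fold change -4.12, SE 0.16, adjusted p = 0.0029). Gpr83, an orphan receptor known from Tregs, had 433, 534, 739 and 305 against 7668, 7044, 7947 and 8340 (-4.01, SE 0.24, adjusted p = 0.0044). In young aTreg cells Gpr83 was still at 4178 to 5241, above kTreg cells by 3.29 on the log2 scale (adjusted p = 0.013).

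Bcl2, the founding inhibitor of apoptosis, had 690, 978, 545 and 786 normalized reads in kTreg cells against 6614, 5206, 6710 and 6262 in rTreg cells. It fell by 3.07 (SE 0.21, adjusted p = 0.0047) without any overlap. Tcf7, the gene of the quiescence and stemness factor TCF1, had 3791, 3668, 2917 and 3170 against 15639, 15597, 14736 and 19428 (-2.27, SE 0.13, adjusted p = 0.0044). Its aTreg libraries, at 13123 to 15329, differed from kTreg cells by a log2 fold change of -2.08 (adjusted p = 0.0067), so that Tcf7 was reduced in kTreg cells against both other young subsets.

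Igf2r, the receptor that carries mannose 6-phosphate proteins and IGF2 to lysosomes, fell by 2.56 (SE 0.12), and the cytoskeletal adaptor gene Pdlim1 by the same amount (SE 0.18). Ms4a4c and Ms4a4b, neighbours on chromosome 19 (11382131-11404610 and 11412557-11444419), fell by 3.05 (SE 0.17) and 1.68 (SE 0.10). Ms4a4b remained abundant in both subsets, with 20792, 15603, 21813 and 17868 against 68286, 45415, 76714 and 56482 normalized reads. Gpr18, a lipid receptor, fell by 2.29, the sialyltransferase gene St8sia6 by 1.73, the interferon-inducible GTPase gene Tgtp1 by 1.72 and Slfn1, a schlafen gene of quiescent T cells, by 1.56.

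Among genes with at least 100 normalized reads in rTreg cells, the largest falls were those of Ntn4, Drc1, Chil3, Selp, Treml2, Wnt3, Ly6d and Adcy6, from -6.30 to -4.66. Drc1, Chil3 and Adcy6, at -5.79, -5.36 and -4.66, had no read in kTreg 4. Without mouse 4 they were at -5.1, -5.6 and -3.87. Of the 440 genes that fell, 51 had no read in kTreg 4, as had 2451 of the 14275 genes tested. Ntn4, which encodes netrin 4, had 1.31, 9.56, 1.05 and 0 against 237, 91.9, 243 and 351. Ntn4 passed the filter through the rTreg libraries alone. Selp, the gene of P-selectin, had 1.31, 1.91, 10.5 and 0 against 134, 82.0, 158 and 112. Chil3 and Ly6d, genes better known from macrophages and from B cells, were highest in the libraries of mouse 2, at 486 and 1881 in rTreg 2 and 20.1 and 666 in kTreg 2, and the part of other cells in their difference was not tested. Lcn10 was without a read in all 4 kTreg libraries and averaged 42.5 in rTreg cells, at least 13.4-fold lower when set against 3 reads per library. These and the next pair were picked after their values were seen. Rasgrf1 and Gata3un were without a read in all rTreg libraries and were at least 13.8-fold and 6.82-fold higher in kTreg cells by the same measure. Lcn10, Rasgrf1 and Gata3un also passed the filter through 1 group alone, so their direction is no result.

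Promoters are shown for 3 genes picked by hand, the receptor genes Il1rl1 and Ccr8, which rose, and Tcf7, which fell. Each of the 3 holds at least 1 of the motifs below, while other named genes, such as Bcl2 and Rora, hold none. RefSeq promoters run from 250 bases before to 50 bases after a transcript start and are given 5′ to 3′ on the strand of the gene, in the build GRCm38.p6. The search on both strands used the letters AGATAA for GATA factors. For forkhead factors, which include the FOXO proteins of quiescent T cells, it used GTAAACA. The KLF motif was searched as CCACACCC. Those of AP-1, searched as TGACTCA, and of the TCF and LEF factors, searched with the letters CTTTGAA, were not found in the promoters shown. Capitals mark a match. Il1rl1 has 2 starts:
Il1rl1, chr1:40429320-40429619, plus strand: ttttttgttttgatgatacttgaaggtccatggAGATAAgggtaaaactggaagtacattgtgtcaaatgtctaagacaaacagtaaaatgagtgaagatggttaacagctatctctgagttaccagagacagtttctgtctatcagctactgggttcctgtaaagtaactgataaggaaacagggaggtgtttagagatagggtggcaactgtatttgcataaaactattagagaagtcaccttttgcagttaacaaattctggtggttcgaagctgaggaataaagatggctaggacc
Il1rl1, chr1:40439379-40439678, plus strand: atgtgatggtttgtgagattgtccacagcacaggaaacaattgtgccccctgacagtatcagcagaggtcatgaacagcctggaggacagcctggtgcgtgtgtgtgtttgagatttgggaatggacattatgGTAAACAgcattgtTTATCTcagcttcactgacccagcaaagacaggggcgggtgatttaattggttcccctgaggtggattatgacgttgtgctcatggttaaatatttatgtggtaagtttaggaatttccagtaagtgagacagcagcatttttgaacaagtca
Ccr8, chr9:120091883-120092182, plus strand: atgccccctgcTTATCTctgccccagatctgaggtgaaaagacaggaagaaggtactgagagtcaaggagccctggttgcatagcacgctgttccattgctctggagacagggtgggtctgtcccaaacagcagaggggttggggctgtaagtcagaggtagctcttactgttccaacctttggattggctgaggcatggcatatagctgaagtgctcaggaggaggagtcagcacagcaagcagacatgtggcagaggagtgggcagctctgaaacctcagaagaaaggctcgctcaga
Tcf7, chr11:52282546-52282845, minus strand: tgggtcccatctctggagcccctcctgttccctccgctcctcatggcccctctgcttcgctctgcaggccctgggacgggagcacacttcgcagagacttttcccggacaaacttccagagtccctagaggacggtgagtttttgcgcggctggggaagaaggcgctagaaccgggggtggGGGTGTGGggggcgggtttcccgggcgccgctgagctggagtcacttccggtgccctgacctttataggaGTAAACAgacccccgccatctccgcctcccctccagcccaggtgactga
The first Il1rl1 promoter held AGATAA, the second GTAAACA and the GATA letters on the other strand, and that of Ccr8 the GATA letters on the other strand. That of Tcf7 held CCACACCC on the other strand and GTAAACA. Another start of Tcf7 has a promoter without any of these letters. Of all 32851 promoters of this length, 11.2% held the GATA letters, 3.65% the forkhead letters, 3.56% the KLF letters, 5.2% those of AP-1 and 5.14% those of TCF and LEF. The GATA letters stood in 3 of the 10 genes with an entry that were named for the smallest p or as markers and rose, and in 1 of the 12 that fell. In the same 10 and 12 genes, the AP-1 letters stood in 1 and 0 and those of TCF and LEF in 0 and 2. The forkhead letters stood in 1 and 1 and the KLF letters in 0 and 1. A match is a description of the sequence and no sign of binding.

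Gene lists that describe Treg states split along the line between resting and effector cells. The rTreg gate itself took CD62L+ CD44- cells, and the lists were chosen with earlier results of these data known. The split is thus a description of the sorted subsets and no independent finding. Of 38 genes of the resting state, homing and quiescence, 26 fell and 1 rose, with a median log2 fold change of -1.49 beside a median of -0.13 over all genes tested. Ccr7, the receptor that guides cells to the T cell zone, had 2517, 2393, 1823 and 908 normalized reads in kTreg cells against 18904, 17966, 19606 and 19265 in rTreg cells (-3.41, SE 0.27). The genome organizer gene Satb1 fell by 2.32 (SE 0.24) and Evl, an actin regulator, by 2.04. S1pr1, which lets lymphocytes leave lymphoid organs, fell by 0.91 (SE 0.19, adjusted p = 0.041). The exception was Il7r, the IL-7 receptor alpha chain, with 8245, 10126, 8536 and 7544 normalized reads in kTreg cells and 2663, 3563, 3294 and 3507 in rTreg cells, a rise of 1.40 (SE 0.12, adjusted p = 0.0056). Without mouse 2, 15 of the 38 genes fell. The median of the list in mice 1 to 4 was -1.30, -1.15, -1.40 and -1.86, negative in each. Without mouse 1, 10 of the 38 fell, and without mouse 3, 9 did.

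Treg identity genes moved both ways: 9 of 21 rose and 5 fell. Itgae, which encodes the CD103 integrin chain that binds E-cadherin, had 14450, 13091, 12337 and 11983 normalized reads against 1149, 2011, 689 and 1119 (3.48, SE 0.24, adjusted p = 0.0047). Icos rose by 2.45 (SE 0.21), Ctla4 by 1.56 (SE 0.10), Tnfrsf4, which encodes OX40, by 1.28 (SE 0.18) and Tnfrsf18, which encodes GITR, by 0.89 (SE 0.17). Lrrc32, the gene of the TGF-beta docking protein GARP, fell by 1.54 and Izumo1r, the folate receptor 4 gene, by 0.73. Ikzf2, which encodes Helios, did not pass, with a log2 fold change of 1.18 and an adjusted p of 0.066, and rose without mouse 4 (0.80). Without mouse 2, 4 rose and 2 fell.

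Effector and tissue Treg transcription factors rose in 17 of 38 cases and fell in 1. Prdm1, the gene of Blimp-1, had 3057, 3141, 3763 and 2944 normalized reads in kTreg cells and 254, 390, 93.6 and 167 in rTreg cells (4.01, SE 0.38, adjusted p = 0.0082). Maf rose by 3.14 (SE 0.25), Nfil3 by 1.98 (SE 0.18), Batf by 1.39 (SE 0.27) and Gata3 by 1.38 (SE 0.10). Gata3, a factor that drives ST2 and type 2 cytokine genes, had 7356, 6975, 7294 and 7434 normalized reads against 3104, 2371, 2929 and 2842. In aTreg cells it was at 2647 to 3146, and kTreg cells were above them by 1.34 (adjusted p = 0.0097). The member that fell was Myc, a driver of growth and ribosome production (-1.68, SE 0.24, adjusted p = 0.019). Without mouse 4, 25 of the 38 rose and 2 fell, and without mouse 2, 10 rose and none fell.

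Suppressive and repair mediators rose in 12 of 21 cases, with a median log2 fold change of 1.56. None fell in limma, DESeq2 or edgeR, and at an unadjusted p below 0.05 the count of lower members was 0. Gzmb, which encodes the protease granzyme B, had 7816, 4275, 5519 and 6255 normalized reads in kTreg cells and 377, 378, 142 and 154 in rTreg cells (4.62, SE 0.34, adjusted p = 0.0047). Il10, the gene of an anti-inflammatory cytokine, had 938, 723, 891 and 236 against 37.0, 27.7, 3.95 and 5.02 (5.52, SE 0.62, adjusted p = 0.011). The lowest of the kTreg values, that of mouse 4, was still above every rTreg value. Fgl2, a secreted suppressor of dendritic cells, rose by 4.63 (SE 0.34), the inhibitory receptor gene Tigit by 3.52 (SE 0.35) and Areg, the epithelial growth factor amphiregulin, by 2.59 (SE 0.37). Against aTreg cells, Gzmb was higher by 3.25 (adjusted p = 0.012), while the difference in Il10 of 0.96 did not pass (adjusted p = 0.32). Without mouse 2, 7 rose.

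Of 27 chemokine and lipid receptor genes, 14 rose and 3 fell. Ccr8, a receptor of tissue and tumour Tregs, had 7250, 8262, 5502 and 2909 normalized reads against 1348, 897, 732 and 416 (2.84, SE 0.15, adjusted p = 0.0040). Ccr3, the eotaxin receptor, had 1581, 2807, 2026 and 879 against 37.0, 136, 13.2 and 27.1 (5.47, SE 0.50, adjusted p = 0.0075). In aTreg cells Ccr3 was at 31.2 to 59.5, within the range of rTreg cells, and kTreg cells were above them by 5.26 (adjusted p = 0.0078). Ccr2, its neighbour on chromosome 9 (Ccr3 at 123822009-123831726, Ccr2 at 123901982-123913594), rose by 4.26 (SE 0.41) to between 6347 and 8844. The skin-homing receptor gene Ccr10 rose by 4.46 (SE 0.43), the lipid receptor gene Gpr55 by 3.75 (SE 0.31) and Ccrl2, an atypical chemokine receptor, by 2.67 (SE 0.22). Those that fell were Ccr7, S1pr1 and Cxcr5, the receptor of the B cell follicle (-1.57, SE 0.19). Among adhesion genes, the glycosyltransferases Gcnt1 (4.19, SE 0.57) and Fut7 (2.41, SE 0.40), which build selectin ligands, rose. Nid2, the gene of the basement membrane protein nidogen 2, had 721, 935, 794 and 1143 normalized reads in kTreg cells against 38, 25.5, 11.9 and 22.1 in rTreg cells (5.23, SE 0.42, adjusted p = 0.0051). Icam1, a ligand of LFA-1, and the tetraspanin gene Cd81 rose by 1.58 and 1.45, and Icam2 and the tetraspanin gene Cd9 fell (-0.93 and -2.73). In all, 6 of 21 adhesion genes rose and 3 fell, 9 and 5 without mouse 4 and 5 and 0 without mouse 2. Without mouse 4, 5 of the 27 receptor genes fell, and without mouse 2, 1 did.

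Of 37 cytokine receptor genes, 11 rose and 3 fell. After Il1rl1, Il9r, the receptor of IL-9, rose most among those named (4.25, SE 0.39), followed by Il18rap, the accessory chain of the IL-18 receptor, by 3.46 (SE 0.46) and Il12rb1 by 2.29 (SE 0.24). Il18rap lies on chromosome 1 at 40554522-40590865, within the same cluster as Il1rl1. Il6ra fell by 0.95 and Il4ra by 0.70, and Il4ra did not pass without mouse 4 (-0.54). Of 16 TNF receptor genes, 6 rose and 1 fell, led by Tnfrsf8, which encodes CD30, at 3.30 (SE 0.33). Tnfrsf1b, the gene of TNF receptor 2, was abundant in both subsets, at 32694, 37578, 31775 and 24892 normalized reads against 5347, 7732, 3276 and 5234 (2.60, SE 0.19, adjusted p = 0.0047). Of 24 checkpoint and costimulatory genes, 7 rose and 2 fell, the first including Havcr2, which encodes TIM-3 (4.62, SE 0.54), and the second Cd96 (-1.05) and Cd200 (-0.85). Without mouse 2, 6 cytokine receptor genes, 3 TNF receptor genes and 6 checkpoint genes rose and none of these lists had a gene that fell.

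Integrin chains, the subunits of receptors for matrix and other cells, depended on mouse 4. Beside Itgae, Itgav rose by 1.83 (SE 0.14) and Itgb1 by 1.40 (SE 0.22), and Itga6 fell by 1.25 (SE 0.24), so that 3 of 21 rose and 1 fell. Without mouse 4, 13 rose and 2 fell, and the median log2 fold change went from 0.47 to 1.34. Without mouse 2, 2 rose and none fell. Itgal, the LFA-1 alpha chain, was at 0.91 (adjusted p = 0.062) with all mice and rose without mouse 4 (1.12). Of 24 S100, annexin and galectin genes, 8 rose and 1 fell. S100a4 had 10052, 5762, 8490 and 19381 normalized reads against 1306, 1121, 676 and 402 (3.63, SE 0.52, adjusted p = 0.019), S100a6 rose by 2.94 (SE 0.40) and Lgals3, the gene of galectin-3, by 2.87 (SE 0.40). The member that fell was S100a9, a calprotectin gene of neutrophils, highest in the libraries of mouse 2 at 1611 in rTreg and 547 in kTreg cells and at most 177 in the others. Without mouse 4, 13 of these genes rose and 2 fell, and without mouse 2, 5 rose and none fell.

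Genes of killing beyond Gzmb were mixed. Of 25 granzyme, perforin and granule genes, 8 rose and 1 fell, the rise covering the cathepsin inhibitors Ctla2b (5.59, SE 0.83) and Ctla2a (3.53, SE 0.53) and the fall Ctsw (-1.91). Prf1, the gene of perforin, had a log2 fold change of -2.39 that did not pass (adjusted p = 0.41) and was -0.17 without mouse 4. Klrg1 was alone among 16 tested killer lectin-like receptor genes in rising. None fell in limma, DESeq2 or edgeR, also at an unadjusted p below 0.05 in limma. Klrd1 (-1.39, adjusted p = 0.52) and Klrk1 (-1.58, adjusted p = 0.49) did not pass in either direction. Without mouse 2, 2 of the 25 granule genes rose and 1 fell.

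Cell division genes had a positive median difference in 3 of the 4 mice. The median log2 difference of 62 mitosis and G2/M genes between kTreg and rTreg cells was 1.14 in mouse 1, -0.20 in mouse 2, 1.56 in mouse 3 and 1.46 in mouse 4. Only Racgap1, a regulator of cytokinesis (1.67, SE 0.29, adjusted p = 0.028), and Cdc25b, a phosphatase that starts mitosis (1.45, SE 0.21, adjusted p = 0.019), passed in limma, while DESeq2 called 20 higher and edgeR 2. The 2 limma calls among 62 genes are a smaller share than the 5.72% of all genes tested that rose. Racgap1 had 4530, 2289, 2989 and 3036 normalized reads in kTreg cells and 1395, 1480, 622 and 711 in rTreg cells. Without mouse 4, 25 of the 62 rose, and without mouse 2, 5 did. Without the pairing, 6 rose. Of 47 genes of DNA replication none passed in either direction in limma with all mice. At an unadjusted p below 0.05, 2 of them were higher and 0 lower, DESeq2 called 2 higher and edgeR 0, and 6 rose without mouse 4 and 1 without mouse 2. The list of cell cycle inhibitors also held 4 genes that rose, among them the retinoblastoma relative Rbl2 (2.07, SE 0.20) and Cdkn2c (1.73, SE 0.33), and 1 that fell, Cdkn2d (-1.01). Of 47 p53 targets, 9 rose and 1 fell. Abhd4 (2.13, SE 0.22) and the pro-apoptotic BH3 gene Pmaip1 (1.52) were among those that rose and Fas (-1.14), a death receptor, fell. In the BCL2 family, Bcl2l1, which encodes the survival protein BCL-XL, rose by 1.26 while Bcl2 fell. Without mouse 4, 7 of the inhibitors and 16 of the p53 targets rose and 4 and 3 fell, and without mouse 2, 2 of each rose. Beside these counts, 5.72% of all genes tested rose and 3.08% fell with all mice, and 15.2% and 11.9% without mouse 4.

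Ribosomal protein genes were lower. Of 86 genes of cytosolic ribosomal proteins, 85 had a negative log2 fold change and 34 fell, with a median of -0.98. Rps4x had 6207, 5334, 5494 and 5472 normalized reads in kTreg cells against 12388, 12113, 14650 and 9717 in rTreg cells (-1.11, SE 0.12, adjusted p = 0.012), and Rpl4 fell by 1.04 (SE 0.13). The median difference was -1.12, -1.10 and -1.44 in mice 1 to 3 and -0.20 in mouse 4. Without mouse 4, 82 of the 86 fell, and without the pairing 68 did. Without mouse 2 none passed in limma, while 61 were lower at an unadjusted p below 0.05. For young aTreg against young rTreg cells, the median log2 fold change of this list was -0.56. Genes of ribosome biogenesis fell in 7 of 30 cases and rose in 1, Odc1 (1.18). Srm, which makes spermidine, fell by 1.20 and the nucleolar gene Npm1 by 0.97. Without mouse 2, none of the 30 passed in limma, while 12 were lower and 1 was higher at an unadjusted p below 0.05.

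Nuclear genes of mitochondrial proteins pointed the same way with smaller differences. The median log2 fold change was -0.43 for 82 mitochondrial ribosomal proteins, -0.36 for 58 genes of complex I and -0.38 for 70 genes of complexes II to V. Of these, 3, 1 and 0 fell with all mice, among them Mrpl30 (-1.19), Mrpl2 (-0.72) and Ndufb6 (-0.78), and 34, 26 and 26 without mouse 4. Over all genes tested the median was -0.13, and 3.08% fell with all mice and 11.9% without mouse 4. In mouse 4 the medians of the 3 lists were -0.04, 0.37 and 0.22, and in the other 3 mice they lay between -0.79 and -0.42. Without mouse 2 none passed in limma, and 20, 4 and 3 were lower at an unadjusted p below 0.05. For complexes II to V, limma with all mice made no call. At an unadjusted p below 0.05 with a change above 1.5-fold, 7 genes were lower and 0 higher, and DESeq2 called 6 lower and edgeR 0. Without the pairing, 10 genes of mitochondrial ribosomal proteins, 1 of complex I and 2 of complexes II to V fell. For young aTreg against young rTreg cells, the median log2 fold changes of the 3 lists were -0.2, -0.32 and -0.32, so lower medians were not particular to kTreg cells.

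**Figure D4:**
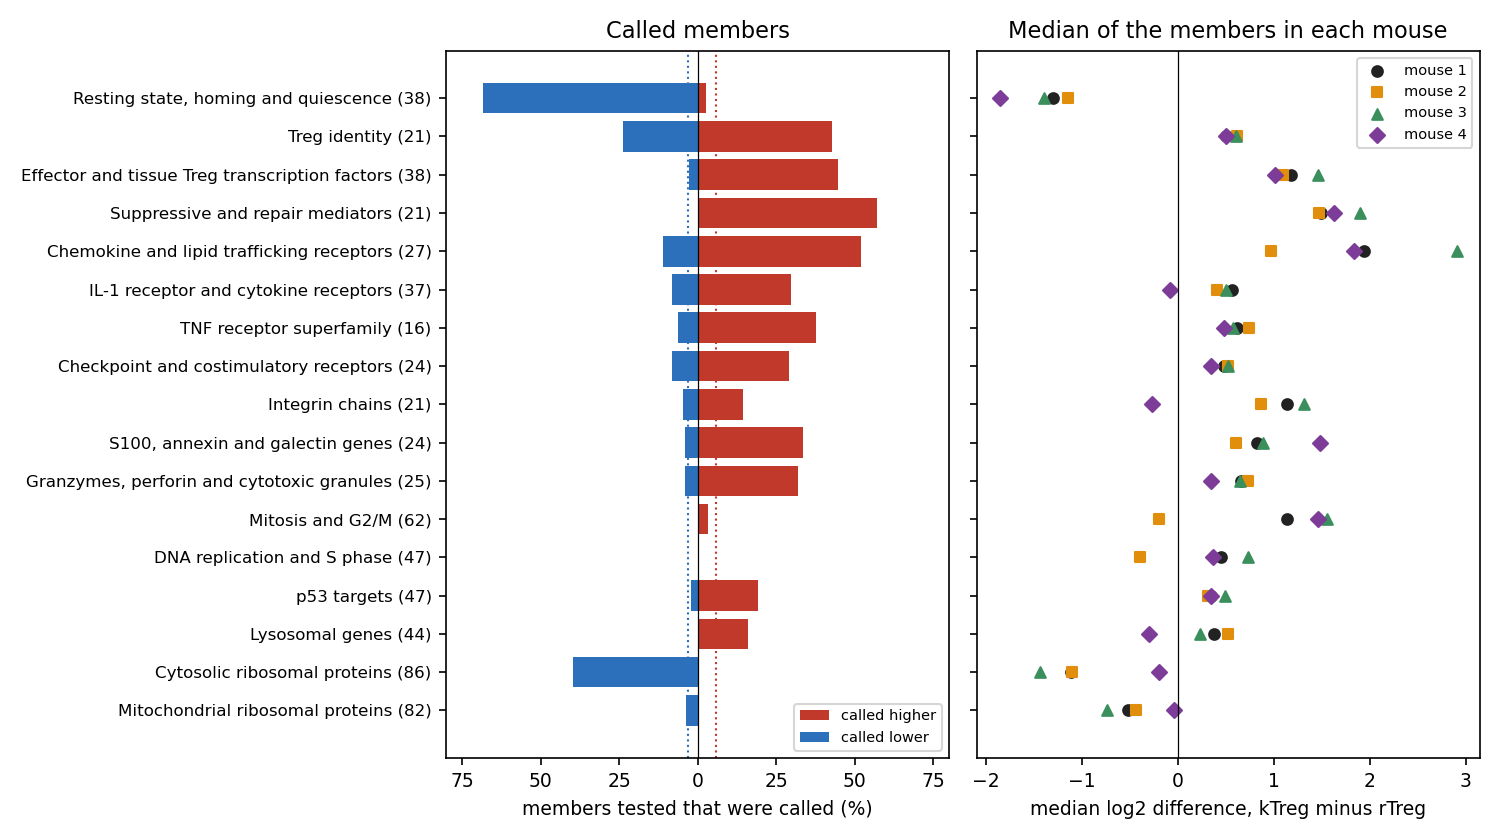
Left, share of the tested members of 17 gene lists (number in parentheses) that rose (red, to the right) or fell (blue, to the left) in kTreg cells, with dotted lines at 5.72% and 3.08%, the shares over all genes; right, median log2 difference of the members in each mouse. The ribosomal, mitochondrial and integrin lists of mouse 4 and the cell division lists of mouse 2 lie apart from the other mice.

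Lysosomal genes rose in 7 of 44 cases and none fell, with Lamp2 at 1.44 and Ctsb, the gene of cathepsin B, at 1.12. Ctsb was at 45567 normalized reads in kTreg 2 and at 19701 to 20002 in the other 3 kTreg libraries. In limma, 1 lysosomal gene was lower at an unadjusted p below 0.05, DESeq2 called 1 lower and edgeR 0, and 14 genes rose without mouse 4 and 1 without mouse 2. Of 50 interferon-stimulated genes, Oas1a (1.29) and Gbp7 (0.84) rose and Usp18 (-1.66) and Ifi208 (-0.85) fell. Without mouse 4, 11 of them rose and 3 fell, and without mouse 2, 0 rose and 1 fell. Over all genes tested, 5.72% rose and 3.08% fell, and without mouse 4, 15.2% and 11.9% did. Of 30 glycolysis and hypoxia genes, the oxygen sensor gene Egln3 (2.38) and the oxidase gene Ero1a (1.15) rose, and Pdk1 (-1.21) and Eno1 (-0.79) fell, with 5 in each direction without mouse 4 and none without mouse 2. Of 30 genes induced by the T cell receptor, 3 rose and 3 fell, Dusp1, Dusp5 (1.35) and Batf against Myc, Dusp10 (-1.07) and Dusp2 (-0.75). Without mouse 4, 10 rose and 4 fell, and without mouse 2, 2 rose and none fell. Cytokine and chemokine ligand genes rose in 6 of 33 cases and fell in 3. The chemokine gene Ccl5 rose by 2.26 and Il18 by 3.41, and Lta, the gene of lymphotoxin alpha, fell by 1.60. Of these ligand genes, 14 rose and 6 fell without mouse 4, and 1 rose and 1 fell without mouse 2.

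Transcripts that mark other cells were examined in the same libraries. Of 8 tested neutrophil markers, 1 rose and 1 fell with all mice, with a median log2 fold change of -2.06. Without mouse 4, 1 of these rose and 6 fell, with a median of -2.96, and without mouse 2, 1 rose and 0 fell. Of 12 tested macrophage and monocyte markers, 2 rose with all mice, among them the complement gene C1qc (2.43, adjusted p = 0.034), and 8 rose without mouse 4 and none without mouse 2. C1qc had 111, 4785, 138 and 61.3 normalized reads in kTreg cells against 22.6, 410, 26.4 and 20.1 in rTreg cells. Its largest values were those of mouse 2, and Csf1r, a defining gene of macrophages, was at 7542 in kTreg 2 and at 0 in kTreg 4. The metalloproteinase gene Mmp9 (2.79, SE 0.41) was higher in all 4 mice, at 850, 1160, 1406 and 939 against 89.4, 410, 97.6 and 154. The part of other cells in these differences was not tested. Ighm, the gene of the IgM heavy chain, had 53843, 50162, 50829 and 42476 normalized reads in kTreg cells and 27545, 35486, 27401 and 25748 in rTreg cells (0.77, SE 0.12, adjusted p = 0.022). The B cell gene Cd79a had 83.7, 2108, 63.9 and 0 in kTreg cells against 219, 5242, 167 and 117 in rTreg cells. Cd79b, another B cell gene, had 1071, 2239, 1531 and 2064 against 967, 4468, 970 and 744. Cd22 had 441, 1257, 310 and 0.916 against 69.9, 1510, 9.23 and 25.1. Of 8 tested B cell markers, 2 had a positive and 6 a negative log2 fold change. The part of B cells in the rise of Ighm was not tested. With Ighd4-1 (3.04) and Ighj1 (2.93), a D and a J segment of the locus of Ighm, 3 of 12 immunoglobulin genes rose. Without mouse 4, 5 rose and 1 fell, and without mouse 2 none passed in limma, with 5 higher and 1 lower at an unadjusted p below 0.05. Of 5 tested dendritic cell markers, Zbtb46 rose (2.36), and without mouse 4, 2 rose and 1 fell. Of 4 tested basophil and mast cell markers, Fcer1a had 11.1 to 30.1 normalized reads in rTreg cells and at most 2.62 in kTreg cells, and as it passed the filter through the rTreg libraries alone, its direction is no result. Neither list had a call without mouse 2. No marker of platelets (2 tested), erythroid cells (4), CD8 T cells (2), NK cells (11), B cells (8) or plasma cells (5) passed in limma or edgeR. At an unadjusted p below 0.05, 0, 0, 2, 1, 4 and 2 of them were lower and 0 higher, and DESeq2 called 0, 0, 2, 1, 2 and 1 lower. Without mouse 4, limma called 0, 0, 2, 1, 3 and 2 lower and 1 B cell marker higher, and without the pairing 1 NK cell marker lower.

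T cell receptor V genes fell in 8 of 102 cases and rose in none in limma, with 2 higher at an unadjusted p below 0.05, 2 called higher by DESeq2 and 0 by edgeR. Those named that fell were of the beta locus, such as Trbv2 (-1.21, SE 0.18) and Trbv13-1 (-1.19). With all 102, the median log2 fold change was -0.02, and without mouse 4, 5 rose and 19 fell. Without mouse 2 none passed in limma, and 1 was higher and 15 were lower at an unadjusted p below 0.05. V genes are similar in sequence, and how reads that match several of them were counted is not given in the sources used here.

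Young aTreg cells of the same mice give a second reference for the kTreg libraries. Against aTreg cells, 249 genes (1.74%) were higher and 75 lower in kTreg cells. Besides the genes already given, Lgals3 was higher than in aTreg cells by 3.15 (adjusted p = 0.0067), Cdc25b by 2.15 (adjusted p = 0.019) and Racgap1 by 1.68 (adjusted p = 0.024). Lower than in aTreg cells were Igf2r, by a log2 fold change of -1.89 (adjusted p = 0.0097), Bcl2 (-2.21, adjusted p = 0.011) and Ccr7 (-2.39, adjusted p = 0.029). As the kTreg libraries enter both comparisons, the values are given side by side and not as an overlap.

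In the old mice, which shared no library with the young, kTreg and rTreg cells were compared in the same way. The old rTreg libraries held more transcripts of other cells than the young ones. Summed basophil and mast cell markers came to 4942 to 13116 normalized reads in old rTreg cells, 153 to 883 in old kTreg cells and 229 to 353 in young rTreg cells. Summed macrophage and monocyte markers came to 10818 to 27799 in old rTreg cells and 2864 to 4955 in old kTreg cells, and immunoglobulin genes to 100433 to 157907 in old and 26573 to 55484 in young rTreg cells. Listed genes without a read numbered 1215 to 2756 in old rTreg and 575 to 914 in old kTreg cells. The part of these transcripts in the differences between the ages was not tested. The difference between the ages, tested in the 16 libraries of both ages over 15978 genes with the mouse as a block, passed for 155 genes (0.97%), 132 more positive and 23 more negative in young mice. Klrg1 did not differ, at 8.77 in young and 8.60 in old mice (adjusted p = 0.97). Il1rl1 differed by 2.50 (adjusted p = 0.027): kTreg cells had 4904 ± 778 normalized reads in young and 4388 ± 915 in old mice (SD, n = 4 each), and rTreg cells had 157 ± 36.2 and 813 ± 292. Gzmb differed by 2.90 (adjusted p = 0.032), with kTreg cells at 5966 ± 1479 in young and 1632 ± 432 in old mice. The rTreg cells of both ages also enter this difference. For Bcl2 the difference was -1.97 (adjusted p = 0.023), since kTreg cells had 750 ± 182 in young and 1783 ± 445 in old mice and rTreg cells 6198 ± 689 and 3744 ± 499.

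Those with the smallest p that were more positive in young mice were Fam234a (2.32), Lgmn (2.72), Lilrb4b (3.30), Cdc25b (2.07), Sgk1 (1.96) and Niban2 (3.59), each by the difference of the log2 fold changes. Lgmn, the lysosomal protease legumain, rose by 2.43 in young mice and was at -0.29 in old ones. More negative in young mice were Tgtp1 (-1.62), Bcl2, Ms4a4c (-2.12), Pipox (-7.12), Igf2r (-1.24) and Enpp4 (-2.05). Pipox rested on few reads, at most 44.3 in the young libraries and none in old rTreg cells. Of the 62 mitosis genes, 26 passed, all more positive in young mice, and the median log2 fold change of the list was 0.84 in young and -1.35 in old mice. The summed normalized reads of the list were 89638 to 113847 in old rTreg and 27369 to 64982 in young rTreg cells, the groups in which the transcripts of other cells differed, and 36534 to 49618 in old and 58834 to 116355 in young kTreg cells. Without young mouse 1 or young mouse 3, no gene passed in limma. At an unadjusted p below 0.05 with no fold threshold there were then 1864 and 1685 genes, against 2273 with all mice. Without young mouse 4, 414 passed. DESeq2 called 742 genes, edgeR 59, and limma without the pairing 269.

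**Figure D5:**
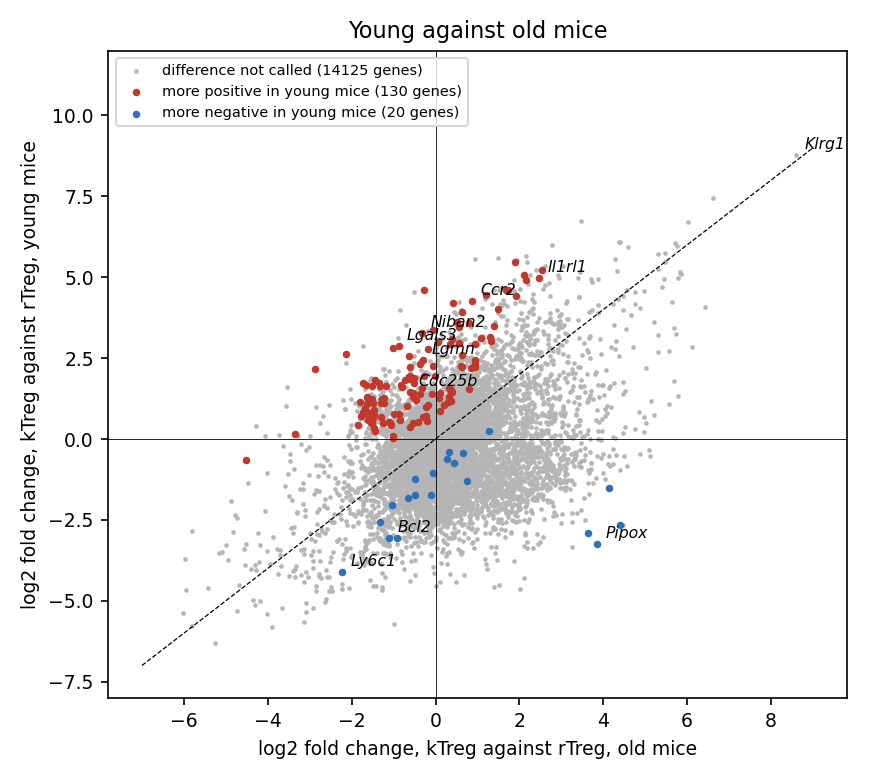
Log2 fold change of kTreg against rTreg cells in young mice (vertical axis) against that in old mice (horizontal axis) for the 14275 genes tested in the young, with the dashed line at equality. Red and blue points are those of them whose difference between the ages passed, and Klrg1 lies near the line while Il1rl1, Niban2 and Lgmn lie above it.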

How the data were processed

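RNA was measured in 24 libraries of splenic Tregs sorted by flow cytometry and made with a SMART-Seq v4 kit, without molecular identifiers. The submitters' processing notes name HISAT2 2.2.1, SAMtools 1.13, HTSeq 1.99.2, DESeq2 1.44.0 and the build GRCm39. The annotation release, the use of strand and the treatment of reads with several matches are not given in the sources used here. The authors deposited 1 signal value per gene and library, the read count divided by a size factor. Steps between values gave back whole reads within 0.001 reads for 100% of the values (edgeR on these reads called 661 genes higher and 305 lower), and the 8 young kTreg and rTreg libraries held 15502851 to 21653939 reads. Of 17464 gene identifiers, 17353 matched a symbol in GENCODE M39 and 111 did not.

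Genes that reached a value of 10 in 4 or more of the 8 libraries were tested on log2(value + 1). The fit used limma 3.58.1 (R 4.3.3) with the mouse number as a block and a trend of the variance on the mean, with Benjamini-Hochberg adjustment over all 14275 genes. Calls needed an adjusted p below 0.05 and a change above 1.5-fold. The difference between ages was tested as an interaction over the 16 kTreg and rTreg libraries. The pairing comes from the series' description, by which the subsets of a mouse were sorted together. Deviations from the group means correlated at -0.001 to 0.314 between libraries of 1 mouse and at -0.224 to 0.149 between mice. Alternatives were edgeR 4.0.16 and DESeq2 1.42.0 on the recovered reads, other scalings, pseudocounts and filters, no pairing, all 24 libraries, and leaving out each mouse. Leaving out a mouse without the pairing was chosen after seeing the data. The tests were checked on simulated data.

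Genes were named by a rule: the sorting markers, the 12 genes in each direction with the smallest p, the 8 in each direction with the largest change and a mean of at least 100 in the higher group, and the 6 in each direction with the smallest p for the difference between ages. In each list, up to 6 called members a direction were named, and up to 4 uncalled members with the highest mean. Unnamed predicted, V and immunoglobulin genes were named only as list members. The comparison, the genes and the lists were chosen with earlier results of these data known. Adjusted p-values of the paired fits rest on how the difference within a mouse varied between mice, with variances moderated over all genes. Some genes that the rule names are not reported here. No batch is given in the labels.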

Additional observations from a re-analysis of the deposited data

Results flagged for a closer look

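In 368 groups of 4 young libraries, 1 for each subset and each named gene, marker sum or library measure, 48 had a lowest or highest library whose gap to the next covered most of the range (Dixon's criterion). Chance gives about 1 in 20 only for independent values with a normal distribution. The groups share libraries and include markers of other cells, so the count of 48 is a description and no test against chance. Of the 48, 34 were libraries of mouse 2. In kTreg 2, normalized reads were high for C1qc (4785), Csf1r (7542), Cd79a (2108), Ly6d (666), S100a9 (547), Chil3 (20.1), Ntn4 (9.56), Pipox (10.5), Ctsb (45567) and Il18 (591), and for the sums of macrophage and monocyte (54740) and B cell (11243) markers. They were low for Ccr2 (6347), Cdc25b (3771) and Socs2 (1012). In rTreg 2 they were high for C1qc (410), Csf1r (940), Cd79a (5242), Ly6d (1881), S100a9 (1611), Chil3 (486), Fgl2 (397), Il9r (197), Lilrb4b (160), Sgk1 (866), Niban2 (174), Rassf6 (15.5) and Frmd5 (52.1). The same library was high for the sums of macrophage and monocyte (10525), B cell (22993) and erythroid (6912) markers, and low for Slfn1 (4482), Cd96 (9173) and Usp18 (2176).

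Outside mouse 2, kTreg 4 was high for Gata3un (44.9), Il18rap (2331), Grap2 (978) and the number of listed genes without a read (4913). kTreg 1 was high for Cdkn2d (2648), Usp18 (1508) and H1f0 (4485), and kTreg 3 for Ccl5 (2017). rTreg 3 was high for Dipk1c, with 1.32 against 0. rTreg 4 was low for Lcn10 (31.1), Ikzf2 (2951) and Cd81 (2809) and high for Ifi208 (5550) and Prkcq (13502).

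The old rTreg libraries held transcripts of other cells, whose part was not tested. The kTreg against rTreg difference of 37 named genes differed between young and old mice in the interaction test with limma. Given as the young minus the old log2 fold change, 26 of them were more positive in young mice, with Il1rl1 at 2.50, Ccr2 at 3.38, Ccr10 at 3.26, Icos at 1.51, Ctla4 at 0.74, Itgae at 2.08, Itgb1 at 1.75, Nid2 at 2.69, Gcnt1 at 3.77, Lilrb4b at 3.30, Gzmb at 2.90 and Maf at 1.85. Further positive differences were those of S100a4 (3.11), S100a6 (2.60), Lgals3 (3.76), Racgap1 (2.49), Cdc25b (2.07), Cdkn2c (2.25), Lamp2 (1.07), Lgmn (2.72), Asns (2.48), H1f0 (1.97), Osbpl3 (1.99), Fam234a (2.32), Sgk1 (1.96) and Niban2 (3.59). Negative differences were those of Ly6c1 (-1.91), Bcl2 (-1.97), Igf2r (-1.24), Ms4a4c (-2.12), St8sia6 (-1.25), Tgtp1 (-1.62), Evl (-1.01), Cd96 (-0.98), Socs1 (-1.16), Pipox (-7.12) and Enpp4 (-2.05).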

How the results depend on the processing

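The counts of genes that rose and fell were 817 and 440 with limma and the mouse as a block. They were 1365 and 1030 with DESeq2 and 1386 and 1281 in a fit of all 24 libraries. At an unadjusted p below 0.05 with a change above 1.5-fold, they were 1540 and 1301. Leaving out each mouse in turn gave 69 to 2176 genes that rose and 24 to 1701 that fell, with the lowest counts without mouse 1 and the highest without mouse 4. Without the replicate block, 1078 rose and 711 fell. With neither the block nor mouse 1, 3 or 4, 435, 378 and 1878 rose and 195, 139 and 1511 fell. Among the 168 named genes that passed, 5 did not pass without the block, namely Dusp1, C1qc, Ly6d, S100a9 and Slc7a1. The difference between ages passed for 155 genes with limma, 742 with DESeq2, 59 with edgeR and 269 without the replicate block, and for 0 to 414 when a young mouse was left out. The cause was not tested in any of these cases.

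All 168 named genes that passed kept their sign in every alternative chosen with the design. Of these, 41 also passed in each of them and 138 in each that kept all mice. Each of the 168 had moved the same way in all 4 mice, so leaving out a mouse could not turn its sign in limma. Leaving out the block could not either, as it does not change the fold change. The call was lost by 25 genes with edgeR, by 124 without mouse 1, 86 without mouse 2, 120 without mouse 3 and 1 without mouse 4, and by at most 4 with another scaling, pseudocount or filter. Of the genes that did not pass, Klrd1 (-1.39) turned to 0.15 and Klrk1 (-1.58) to 0.16 without mouse 4, against lowest values of -2.20 and -2.30. Csf1r (0.63) was at -0.14, -0.16 and -0.09 without mice 1, 2 and 3 and at 2.92 without mouse 4. These values were the same with and without the block. With 4 mice, and genes listed at 0 in kTreg 4, a gene that did not pass is not shown to be equal in the subsets.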

Other observations

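Signalling genes moved in both directions, beside 5.72% that rose and 3.08% that fell over all genes tested. Of 32 genes of proximal T cell receptor signalling, 3 rose and 2 fell in kTreg cells. Malt1, a protease and scaffold of NF-kappaB signalling, had 2513, 2563, 3344 and 2258 normalized reads in kTreg cells and 924, 1077, 966 and 1137 in rTreg cells (log2 fold change 1.37, SE 0.16), and the adaptor genes Sla and Sla2 rose by 1.04 and 0.76. The adaptor gene Grap2 fell by 1.34 and Prkcq, the gene of protein kinase C theta, by 0.79. Without mouse 4, 4 rose and 3 fell, and without mouse 2, 1 rose and none fell. Of 21 STAT, JAK and SOCS genes, Tyk2 (1.24) and Socs5 (0.97) rose and Socs1 (-0.73), Socs2 (-0.82) and Socs3 (-0.96), inhibitors of cytokine signalling, fell. Without mouse 4, 5 rose and 3 fell. None of these 21 passed in limma without mouse 2, when 3 were higher and 3 lower at an unadjusted p below 0.05.

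Of 24 amino acid transporter genes, Slc7a10, which carries small neutral amino acids, rose by 4.24 (SE 0.78), Slc38a10 by 1.08 and Slc43a2 by 1.02, and the arginine transporter gene Slc7a1 fell by 1.11. Slc7a10 had 528, 937, 342 and 387 normalized reads in kTreg cells and 88.4, 138, 9.23 and 3.01 in rTreg cells. Without mouse 4, 9 transporter genes rose and 2 fell, and without mouse 2 none passed in limma, with 4 higher and 1 lower at an unadjusted p below 0.05. Of 35 genes of the unfolded protein and heat shock response, 3 rose, the stress sensor gene Atf6 (1.70), the asparagine synthetase gene Asns (1.85) and Sel1l (0.67). Without mouse 4, 9 of the 35 rose and 2 fell, and without mouse 2 none passed in limma, with 5 higher and 2 lower at an unadjusted p below 0.05. The linker histone gene H1f0 (1.95, SE 0.18) was alone among 28 histone genes in rising, and 2 histone genes fell without mouse 4. In the BCL2 family, Bid rose by 0.79, beside the members already given. With all mice, none of 12 mitochondrially encoded genes, 9 GIMAP GTPases or 23 genes of MHC class I presentation passed in limma, DESeq2 or edgeR. None reached an unadjusted p below 0.05 together with a change above 1.5-fold either. Without mouse 4, limma called 1 gene of each of these lists lower and 2 genes of MHC class I presentation higher. With all mice, Gimap4 had an adjusted p of 0.042 in limma at a log2 fold change of -0.56, short of 1.5-fold. Among 33 genes of cholesterol and fatty acid synthesis, limma and edgeR made no call. At an unadjusted p below 0.05 with a change above 1.5-fold, 2 were higher and 1 lower. DESeq2 called the same numbers, and limma without mouse 4 called 2 in each direction.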
